A study of Mus musculus with 6 samples.

Results

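Small RNA processing and Argonaute genes form the machinery that makes microRNAs (miRNAs) and lets them act. The group described here holds the 10 genes whose name in the deposited tables is *Drosha*, *Dgcr8*, *Dicer1*, *Ago1*, *Ago2*, *Ago3*, *Ago4*, *Tnrc6a*, *Tnrc6b* or *Tnrc6c*. They are 10 of 13348 listed genes, and their isoforms are 15 of 24676 listed transcripts. RNA came from the orbitofrontal cortex, a frontal brain region, of C57BL/6 mice aged 12 weeks. The knockdown group held 3 libraries of mice injected there with a lentivirus that carries a short hairpin RNA (shRNA) aimed at the back-splice site of circHomer1a, the circular form of *Homer1* RNA. The control group held 3 libraries with a scrambled shRNA, per the series title. Both groups thus carry a hairpin, and no group without one was analysed, so the comparison asks whether these genes differ with the target of the hairpin and not with its presence. The labels name neither the promoter nor the cells that expressed the hairpin. They also leave unsaid whether each library is its own animal. A p-value here therefore reflects only how far the libraries of a group spread, and that spread may be technical.

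In the nucleus, the Microprocessor, made of the RNase III enzyme Drosha and the RNA-binding protein Dgcr8, cuts hairpins out of primary miRNA transcripts. After export, the RNase III enzyme Dicer cuts the hairpin to a short duplex, and an Argonaute protein keeps a single strand of it as guide. The Tnrc6 proteins, also called GW182, bind Argonaute and recruit the deadenylases that shorten the tails of target mRNAs. Designed hairpins such as those delivered here are built to end in Argonaute by this route, and the step at which they enter it was not examined. Ago2 is the mammalian Argonaute known to cleave perfectly matched targets efficiently. In neurons the pathway is known for control of dendritic and synaptic mRNAs.

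The Argonaute paralogs differ at the fourth position of the catalytic site, and the coding bases around it are shown to set the cleaving Argonaute beside the others. They were read from GENCODE M21 transcripts (GRCm38, minus strand, 27 bases each), with the codon of that position in capitals. The windows lie at chr4:126439880-126439906 (*Ago1*), chr15:73107203-73107229 (*Ago2*), chr4:126346669-126346695 (*Ago3*) and chr4:126496787-126496813 (*Ago4*).
Ago1: gcctactatgctCGCttggtggctttc
Ago2: gcttactatgctCACctggtggccttc
Ago3: gcatattacgctCACctggtggcattc
Ago4: gcatattatgccCGGcttgtggcattc
The codon translates to histidine in *Ago2* and *Ago3* and to arginine in *Ago1* and *Ago4*, and *Ago4* also has a glycine codon at another aligned catalytic position. Aligned coding regions of the 4 genes were identical at 71.6% (*Ago2* and *Ago3*) to 75.5% (*Ago1* and *Ago2*) of bases. Of the 50-base windows of the annotated transcripts, 121 were shared between *Ago1* and *Ago3*, 4 between *Ago1* and *Ago2*, and 0 in each of the other Argonaute pairs. The Tnrc6 transcripts shared 0 such windows, with 58.1% to 59.7% identity. Reads from a shared stretch cannot be assigned to 1 paralog, and among these models such stretches were rare.

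*Dgcr8* carries a hairpin of its own, a known site where the Microprocessor cuts the *Dgcr8* mRNA. The hairpin of Mir1306 (RefSeq, GRCm38.p6, chr16:18284239-18284317, minus strand) has 79 bases, all within exon 2 of Dgcr8-201, at coding bases 100 to 178. It is printed with the 2 mature arms in capitals, and below it each mature miRNA has its seed, bases 2 to 8, in capitals.
Mir1306: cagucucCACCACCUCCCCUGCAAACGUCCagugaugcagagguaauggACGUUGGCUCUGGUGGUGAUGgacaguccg
mmu-miR-1306-5p: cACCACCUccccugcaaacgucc
mmu-miR-1306-3p: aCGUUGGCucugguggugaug
The arms have different seeds. The deposited tables list protein-coding genes, so neither arm has a value here.

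Promoters of *Drosha*, the most abundant of the genes, and of *Dicer1*, whose transcripts differ in where they start, are shown with each CpG in capitals. Each window runs from 250 bases before to 50 bases after the RefSeq start (GRCm38.p6): chr15:12824565-12824864 on the plus strand for *Drosha* and chr12:104751903-104752202 on the minus strand for *Dicer1*.
Drosha: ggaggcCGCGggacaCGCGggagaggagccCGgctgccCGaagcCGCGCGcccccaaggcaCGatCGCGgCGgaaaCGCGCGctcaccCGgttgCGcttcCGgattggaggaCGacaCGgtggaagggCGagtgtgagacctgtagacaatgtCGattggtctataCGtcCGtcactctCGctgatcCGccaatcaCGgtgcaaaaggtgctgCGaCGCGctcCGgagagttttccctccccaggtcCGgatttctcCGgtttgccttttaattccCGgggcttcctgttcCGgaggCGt
Dicer1: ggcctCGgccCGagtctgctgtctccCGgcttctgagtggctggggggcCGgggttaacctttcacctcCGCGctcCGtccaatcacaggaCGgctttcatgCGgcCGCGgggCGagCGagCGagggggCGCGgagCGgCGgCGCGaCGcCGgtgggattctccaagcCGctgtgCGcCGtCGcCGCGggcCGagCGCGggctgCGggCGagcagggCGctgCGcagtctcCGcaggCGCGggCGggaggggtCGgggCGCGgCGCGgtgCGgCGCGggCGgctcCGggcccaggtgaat
The *Dicer1* window lies at the start of Dicer1-201. The windows hold 37 CpG in *Drosha* and 49 CpG in *Dicer1*, against a median of 7 over all 32851 windows in the table. Promoter windows were found for 9 of the 10 genes, 11 windows in all. The TATA box TATAAA, searched on both strands, was in 0 of the 11 and in 13.6% of all windows. The E-box CACGTG was in 1, of *Tnrc6b*, against 7.15% of all windows. The cAMP response element TGACGTCA was in 0 of the 11, against 1.79% of all windows.

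FPKM values (fragments per kilobase of feature, scaled to the mapped fragments of the library) of listed genes summed to between 256047 and 277103 in knockdown libraries and between 264518 and 285833 in control libraries. The fragment depth is unknown. *Homer1* gene values were 7.44, 16.1 and 9.47 FPKM in knockdown 1, 2 and 3, against 12.1, 8.97 and 12.1 FPKM in control 1, 2 and 3. They belong to the linear gene and do not check the knockdown of the circle. Markers of excitatory neurons (5 of 5 above 0 in every library) summed to between 272 and 333 FPKM in knockdown and between 279 and 488 FPKM in control libraries. Inhibitory neuron, astrocyte, oligodendrocyte, precursor, microglia, endothelial and blood lists were likewise complete, with no listed marker at 0. Oligodendrocyte markers summed to 1296, 986 and 1118 FPKM in knockdown 1, 2 and 3, against 1055, 863 and 896 FPKM in control 1, 2 and 3, highest in knockdown 1 and lowest in control 2. Inhibitory neuron markers summed to 501 to 636 FPKM in knockdown libraries and 611 to 708 FPKM in control libraries, lowest in knockdown 1 and highest in control 2. Blood markers were at 320.0 to 598 FPKM in knockdown libraries and 394 to 1665 FPKM in control libraries, with the peak in control 2. The 6 striatal markers summed to 294 to 355 FPKM in knockdown libraries and 191 to 561 FPKM in control libraries, again with the peak in control 2. Of the choroid plexus markers only *Ttr* was listed, at 0.0735 to 0.899 FPKM in knockdown and 0.897 to 12.9 FPKM in control libraries, with the peak in control 2. Of 3 markers on the olfactory list *Eomes* was not listed. The other 2, *Doc2g* and *Calb2*, summed to 4.81 to 7.45 FPKM in knockdown and 9.48 to 11.0 FPKM in control libraries, with no overlap of the groups. The sum does not tell which of the 2 genes differed.

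By the deposited gene value, *Drosha* stood far above the other genes, with *Tnrc6a* next and *Dicer1* last. Over the 6 libraries *Drosha* averaged 24.2 ± 0.858 FPKM (SD, n = 6), higher than 86.2% of listed genes, and *Dicer1* averaged 2.40 ± 0.640 FPKM, higher than 26.6%. Between them came *Tnrc6a* (8.71 ± 0.794 FPKM), *Tnrc6c* (6.65 ± 1.14 FPKM), *Ago1* (6.04 ± 1.01 FPKM), *Dgcr8* (5.85 ± 0.734 FPKM) and *Ago2* (4.22 ± 0.673 FPKM). *Ago4* (3.02 ± 0.572 FPKM), *Ago3* (2.99 ± 0.614 FPKM) and *Tnrc6b* (2.76 ± 0.375 FPKM) were close together.

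Neighbours in this order were compared within libraries on the log2(FPKM + 1) scale, by a two-sided exact sign-flip permutation test over 6 libraries, adjusted over the 9 pairs. *Drosha* exceeded *Tnrc6a*, *Tnrc6a* exceeded *Tnrc6c*, *Tnrc6c* exceeded *Ago1*, *Dgcr8* exceeded *Ago2* and *Ago2* exceeded *Ago4* in 6 of 6 libraries. Each of these pairs had an exact p of 0.0312, the smallest that 6 libraries allow, and an adjusted p of 0.0563, so no pair passed 0.05. *Ago1* and *Dgcr8* differed in mean log2 level by 0.03 (exact p = 0.688), with *Ago1* higher in 3 of 6 libraries, and *Ago4* and *Ago3* by 0.01 (exact p = 0.969). *Ago3* and *Tnrc6b* (exact p = 0.125) and *Tnrc6b* and *Dicer1* (exact p = 0.0938) kept their order in 5 of 6 libraries. When a gene's listed transcripts were summed in place of the deposited gene value, *Tnrc6c* (9.68 FPKM), *Dgcr8* (9.31 FPKM) and *Dicer1* (4.28 FPKM) moved up. *Drosha* (31.4 FPKM) stayed first, *Tnrc6c* came next and *Ago3* (3.14 FPKM) was last. The places of *Tnrc6a* and *Dicer1* thus depended on the measure.

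**Figure D1:**
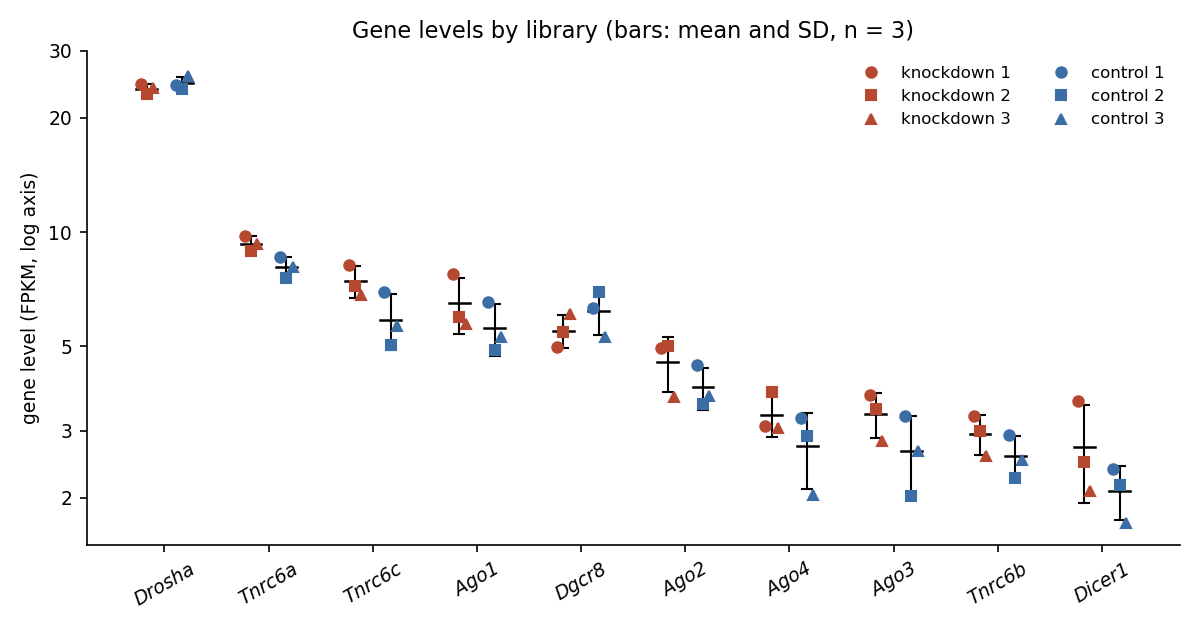
Gene level in FPKM on a log axis for the 10 genes, ordered by their mean. Each point is a library, knockdown left and control right, with mean and SD (n = 3). *Drosha* lies at 23.1 to 25.7 FPKM and all other genes lie under 10 FPKM. The groups of *Tnrc6a* do not overlap, with knockdown higher, as in 4.45% of all tested genes.

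Knockdown against control, no gene of the machinery passed the test. Values were compared as log2(FPKM + 1) with limma over 11961 genes with a mean of at least 1 FPKM, a filter that all 10 passed, and p-values were adjusted over all of them by Benjamini-Hochberg at 0.05. The share of all genes called was 0% (0 of 11961, of which 427 had an unadjusted p under 0.05), and 0 of the 10 were called, with limma adjusted p between 0.948 and 0.960. Of the 10, 8 had a positive fold change, with a median over the 10 of 0.18, whereas 55.7% of all tested genes were positive, with a median of 0.02. Every knockdown library lay above every control in 1 of the 10, against 4.45% of tested genes, and below in 0 of the 10, against 3.47%. That count of 1 became 6 without knockdown 3, 6 without control 1 and 2 without control 3, where 5 libraries decide it. The shares of 4.45% and 3.47% belong to all 6 libraries. No share over all genes was taken with 5, so these counts have no baseline. The median fold change of the 10 was 0.11 without knockdown 1 and 0.12 without control 2. Since bulk tissue was measured, fewer cells of a type and less RNA per cell cannot be told apart.

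**Figure D2:**
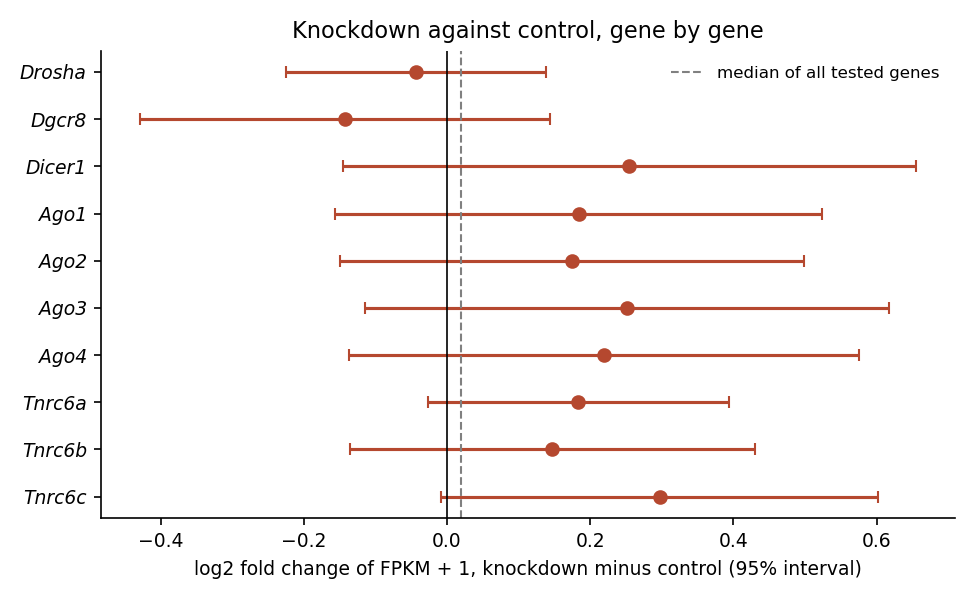
Log2 fold change of FPKM + 1, knockdown minus control, with its 95% interval from limma, for each gene from nuclear processing at the top to Tnrc6 at the bottom. The dashed line is the median of all tested genes (0.02), and every interval includes 0.

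Nuclear processing was the step with negative fold changes. *Drosha* (ENSMUSG00000022191.16, chr15:12824815-12935291) was at 24.5, 23.1 and 24.0 FPKM in knockdown 1, 2 and 3, against 24.4, 23.8 and 25.7 FPKM in control 1, 2 and 3. Control 1 and 2 lay within the knockdown range, and control 3 lay above it. The log2 fold change was -0.04 (95% interval -0.23 to 0.14), a narrow interval among the 10, and it was 0.01 when every library was rescaled to a common sum. *Dgcr8* (ENSMUSG00000022718.11, chr16:18253948-18289249) was at 4.98, 5.45 and 6.08 FPKM in knockdown 1, 2 and 3, against 6.31, 6.95 and 5.30 FPKM in control 1, 2 and 3. Knockdown 1 was lowest and control 2 highest, with control 3 inside the knockdown range (log2 fold change -0.14, 95% interval -0.43 to 0.14, limma adjusted p = 0.948). The ratio of *Drosha* to *Dgcr8* was 4.91, 4.24 and 3.95 in knockdown 1, 2 and 3, against 3.86, 3.42 and 4.84 in control 1, 2 and 3.

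In *Dgcr8*, knockdown 1 differed from the other 5 libraries in which transcript was assigned the fragments. Dgcr8-201, with 2319 coding bases, was at 1.45, 8.53 and 9.43 FPKM in knockdown 1, 2 and 3, against 10.1, 11.5 and 8.29 FPKM in control 1, 2 and 3. Dgcr8-202 was at 6.13, 0.0143 and 0.380 FPKM in knockdown 1, 2 and 3, against 0.0233, 0.0338 and 0.0131 FPKM in control 1, 2 and 3. The share of Dgcr8-202 in the listed transcript FPKM was thus 80.9% in knockdown 1 alone. Dgcr8-202 averaged 0.0234 FPKM in control libraries and passed the minimum of the test, with a mean of 1.10 FPKM, through knockdown 1 alone. The deposited version of Dgcr8-202 is not in GENCODE M21, so its coding length and the bases it shares with Dgcr8-201 are not given. The transcripts span nearly the same stretch, chr16:18253948-18289246 for Dgcr8-201 and chr16:18253957-18289249 for Dgcr8-202. How far their levels rest on an estimated split of shared fragments was not tested. The log2 fold change of Dgcr8-201 was -0.80 (95% interval -2.24 to 0.64) and -0.12 without knockdown 1. In GENCODE M21 *Dgcr8* overlaps *Trmt2a* on the opposite strand over 825 exonic bases, and whether the counting used strand is not given in the sources used here.

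*Dicer1* itself was spread widely, and its short transcript Dicer1-203 separated the groups. The gene (ENSMUSG00000041415.10, chr12:104687742-104751952) was at 3.59, 2.49 and 2.08 FPKM in knockdown 1, 2 and 3, against 2.38, 2.16 and 1.72 FPKM in control 1, 2 and 3. Knockdown 3 lay below control 1 and control 2. The difference in log2 level was 0.25 (95% interval -0.15 to 0.65, limma adjusted p = 0.948), and it was 0.09 without knockdown 1.

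Dicer1-203 was at 1.85, 1.27 and 1.55 FPKM in knockdown 1, 2 and 3, against 0.153, 0.128 and 0.150 FPKM in control 1, 2 and 3. Every knockdown library lay above every control, as for 5.10% of all listed transcripts, and the ratio of the means, 1.56 ± 0.290 to 0.144 ± 0.0137 FPKM (SD, n = 3 each), was 10.9. The two-sided exact permutation p was 0.1, the smallest that 3 against 3 allow. All listed transcripts have a mean of at least 0.5 FPKM in 1 of the groups, which Dicer1-203 reached in knockdown libraries only. The transcript is therefore listed through the group where it is high, so its separation gives no separate support for a change. Its mean over the 6 libraries was 0.852 FPKM, under the minimum of the test. With no minimum, over 24676 transcripts, its log2 fold change was 1.16 (limma adjusted p = 0.166), so it did not pass. On the log2(FPKM + 1) scale the difference lay between 1.08 and 1.24 when any 1 library was left out.

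The model of Dicer1-203 covers only the front of the gene. It starts 13115 bases downstream of Dicer1-201, has 9 exons against 27, and 1460 bases against 9851. Both begin their coding region at the same base, 104731913, but the annotation marks the end of Dicer1-203 as not found. Of its 1460 bases, 1307 also lie in Dicer1-201, and the other 153 lie in exons before the start codon. In fragments it is a small part of the gene: 4.50%, 4.46% and 6.51% in knockdown 1, 2 and 3, against 0.56%, 0.52% and 0.76% in control 1, 2 and 3. Dicer1-201, which codes for the whole enzyme, was at 5.67, 3.24 and 2.69 FPKM in knockdown 1, 2 and 3, against 3.19, 3.58 and 2.19 FPKM in control 1, 2 and 3, with no separation (limma adjusted p = 0.950). The usage test, diffSplice on relative transcript levels, gave *Dicer1* an adjusted p of 0.365 with no minimum.

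**Figure D3:**
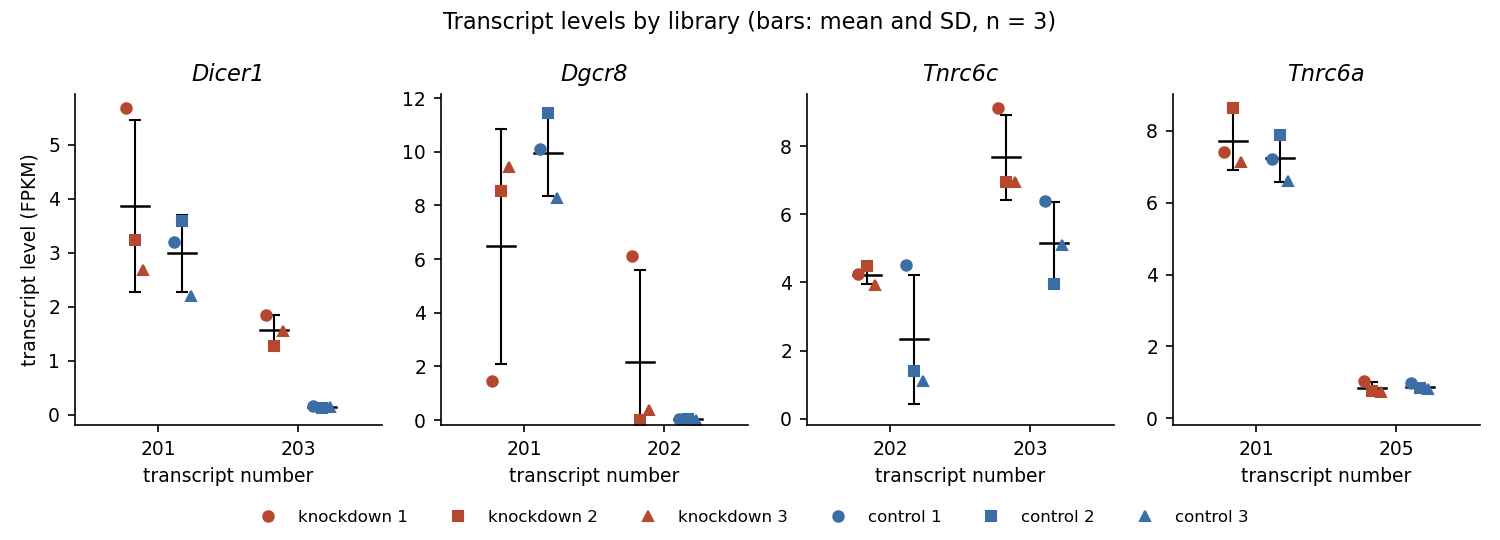
Transcript level in FPKM of the listed transcripts of *Dicer1*, *Dgcr8*, *Tnrc6c* and *Tnrc6a*. Each point is a library, knockdown left and control right, with mean and SD (n = 3). Dicer1-203 lies at 1.27 to 1.85 FPKM in knockdown and 0.128 to 0.153 FPKM in control libraries, and Dgcr8-202 is high in knockdown 1 only.

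All 4 Argonaute genes had positive fold changes, between 0.17 and 0.25 in log2, none past the test. *Ago1* (ENSMUSG00000041530.16, chr4:126435012-126468583), the most abundant of them, was at 7.74, 5.99 and 5.74 FPKM in knockdown 1, 2 and 3, against 6.56, 4.89 and 5.29 FPKM in control 1, 2 and 3. Control 1 lay above knockdown 2 and 3 (log2 fold change 0.18, 95% interval -0.16 to 0.52). *Ago2* (ENSMUSG00000036698.10, chr15:73095844-73184840), the cleaving Argonaute, was at 4.95, 5.02 and 3.67 FPKM in knockdown 1, 2 and 3, against 4.46, 3.53 and 3.70 FPKM in control 1, 2 and 3. Knockdown 3 lay between the lower controls (log2 fold change 0.17, 95% interval -0.15 to 0.50). In GENCODE M21 *Ago2* shares 219 exonic bases with *Chrac1* on the opposite strand.

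*Ago3* and *Ago4* flank *Ago1* on chromosome 4, all on the minus strand. *Ago3* (ENSMUSG00000028842.15, chr4:126331704-126429556) was at 3.72, 3.42 and 2.82 FPKM in knockdown 1, 2 and 3, against 3.28, 2.02 and 2.66 FPKM in control 1, 2 and 3 (log2 fold change 0.25, 95% interval -0.11 to 0.62). *Ago4* (ENSMUSG00000042500.11, chr4:126489541-126533472) was at 3.09, 3.80 and 3.05 FPKM in knockdown 1, 2 and 3, against 3.24, 2.91 and 2.04 FPKM in control 1, 2 and 3 (log2 fold change 0.22, 95% interval -0.14 to 0.58). Control 1 lay within the knockdown range in both genes. Single libraries moved these values: the log2 fold change was 0.07 for *Ago1* without knockdown 1, 0.11 for *Ago2* without knockdown 2, 0.12 for *Ago3* without control 2 and 0.08 for *Ago4* without control 3. The two-sided exact permutation p of the 4 genes lay between 0.2 (*Ago3*) and 0.4 (*Ago1* and *Ago4*).

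The mix of Argonautes overlapped between the groups. Summed Argonaute FPKM was 19.5, 18.2 and 15.3 in knockdown 1, 2 and 3, against 17.6, 13.3 and 13.7 in control 1, 2 and 3. *Ago1* held 36.7% ± 3.49 of the sum in knockdown and 37.6% ± 1.02 in control libraries, and *Ago2* held 25.7% ± 1.76 and 26.3% ± 0.807 in the same order (SD, n = 3 each). *Ago3* held 18.8% ± 0.299 in knockdown and 17.8% ± 2.32 in control libraries, and *Ago4* 18.9% ± 2.67 in knockdown and 18.4% ± 3.45 in control libraries. Each of the 4 genes had 1 listed transcript, so no isoform change could be seen, and these transcripts had log2 fold changes from 0.17 (Ago2-201) to 0.26 (Ago3-201), each with a limma adjusted p of 0.950.

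The 3 Tnrc6 scaffolds had positive fold changes, none past the test. In *Tnrc6a* every knockdown library lay above every control, as in 4.45% of all tested genes. *Tnrc6a* (ENSMUSG00000052707.8, chr7:123123885-123195296) was at 9.75, 8.90 and 9.31 FPKM in knockdown 1, 2 and 3, against 8.61, 7.57 and 8.11 FPKM in control 1, 2 and 3. The lowest knockdown library, at 8.90 FPKM, lay just above the highest control, at 8.61 FPKM. On the log2 scale the difference was 0.18 (95% interval -0.03 to 0.39), with an exact permutation p of 0.1 for the gene alone (two-sided) and a limma adjusted p of 0.948.

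*Tnrc6c* (ENSMUSG00000025571.13, chr11:117654289-117763439) was at 8.20, 7.22 and 6.82 FPKM in knockdown 1, 2 and 3, against 6.95, 5.03 and 5.66 FPKM in control 1, 2 and 3. Only control 1 reached the knockdown range. The difference was 0.30 in log2 (95% interval -0.01 to 0.60, limma adjusted p = 0.948). *Tnrc6b* (ENSMUSG00000047888.10, chr15:80711313-80941085) was at 3.28, 2.99 and 2.58 FPKM in knockdown 1, 2 and 3, against 2.93, 2.25 and 2.52 FPKM in control 1, 2 and 3 (log2 fold change 0.15, 95% interval -0.14 to 0.43), with control 1 above knockdown 3. Summed Tnrc6 FPKM was 21.2, 19.1 and 18.7 in knockdown 1, 2 and 3, against 18.5, 14.9 and 16.3 in control 1, 2 and 3. The lowest knockdown sum, 18.7, lay just above the highest control sum, 18.5. *Tnrc6a*, whose groups did not overlap, is the largest part of the sum, so this is no separate result. *Tnrc6a* held 45.9% to 49.8% of the sum in knockdown and 46.5% to 51.0% in control libraries.

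Both transcripts of *Tnrc6c* had larger fold changes than the gene, and neither passed. Tnrc6c-203, a model with its front end not found, was at 9.11, 6.93 and 6.96 FPKM in knockdown 1, 2 and 3, against 6.39, 3.95 and 5.09 FPKM in control 1, 2 and 3. Every knockdown library lay above every control, as for 5.10% of all listed transcripts (log2 fold change 0.51, 95% interval 0.02 to 0.99, limma adjusted p = 0.950). All 6612 bases of Tnrc6c-203 also lie in Tnrc6c-202, so its level rests on an estimated split of shared fragments. Tnrc6c-202, which has the whole coding region, was at 4.25, 4.47 and 3.93 FPKM in knockdown 1, 2 and 3, against 4.51, 1.39 and 1.10 FPKM in control 1, 2 and 3. Control 1 was the highest of all, and the log2 fold change was 0.79 (95% interval -0.17 to 1.74). Without control 1 it was 1.22 (limma adjusted p = 0.194), without control 2 it was 0.62 and without control 3 it was 0.52. It lay between 0.75 and 0.83 when a knockdown library was left out. The usage test, whose p-values are taken as too small, did not call *Tnrc6c* (adjusted p = 0.909) or *Dgcr8* (0.636). These are the genes with 2 tested transcripts, in *Dgcr8* through knockdown 1 alone, and the test called 1% of 4091 genes.

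Tnrc6a-201 was at 7.42, 8.64 and 7.12 FPKM in knockdown 1, 2 and 3, against 7.22, 7.88 and 6.59 FPKM in control 1, 2 and 3, so the separation of the *Tnrc6a* totals was not seen in its main transcript. Tnrc6a-205 lay between 0.726 and 1.02 FPKM in knockdown and between 0.808 and 0.974 FPKM in control libraries. Tnrc6b-201 was at 4.31, 3.87 and 3.38 FPKM in knockdown 1, 2 and 3, against 3.79, 2.94 and 3.29 FPKM in control 1, 2 and 3. Tnrc6b-205, a model of 183 bases, lay between 0.234 and 0.959 FPKM in knockdown libraries and between 0 and 0.639 FPKM in control libraries. Of the 15 listed transcripts, 12 passed the filter and 0 were called, against 0.103% of 18476 tested transcripts. Groups were apart in 2 of the 15, Dicer1-203 and Tnrc6c-203, both higher in knockdown libraries, against 5.10% of all listed transcripts. Dicer1-203 is listed only through its knockdown libraries, so this count gives no support for a change.

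A deposited gene value is scaled to the exon length of all its models, so it can lie under the sum of its listed transcripts, as in *Drosha*, and it also holds fragments of transcripts that are not listed. Per the gene models of GENCODE M21, the part of the *Tnrc6a* value outside the listed transcripts was 4.55, 3.02 and 4.43 FPKM in knockdown 1, 2 and 3, against 3.56, 2.14 and 3.53 FPKM in control 1, 2 and 3. The part within listed transcripts was 5.20, 5.88 and 4.89 FPKM in knockdown 1, 2 and 3, against 5.05, 5.43 and 4.58 FPKM in control 1, 2 and 3. Neither part separated the groups by itself. In *Tnrc6c*, the outside part took 7.11% to 7.93% of the gene in knockdown libraries, against 7.93%, 40.6% and 40.3% in control 1, 2 and 3. These are the control libraries in which Tnrc6c-202 was low. In *Dicer1* it was 2.55%, 19.1% and 17.6% in knockdown 1, 2 and 3, against 20.6%, 2.08% and 24.3% in control 1, 2 and 3. In *Drosha*, *Ago1*, *Ago3*, *Ago4* and *Tnrc6b* it stayed at or under 5.38% in every library.

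**Figure D4:**
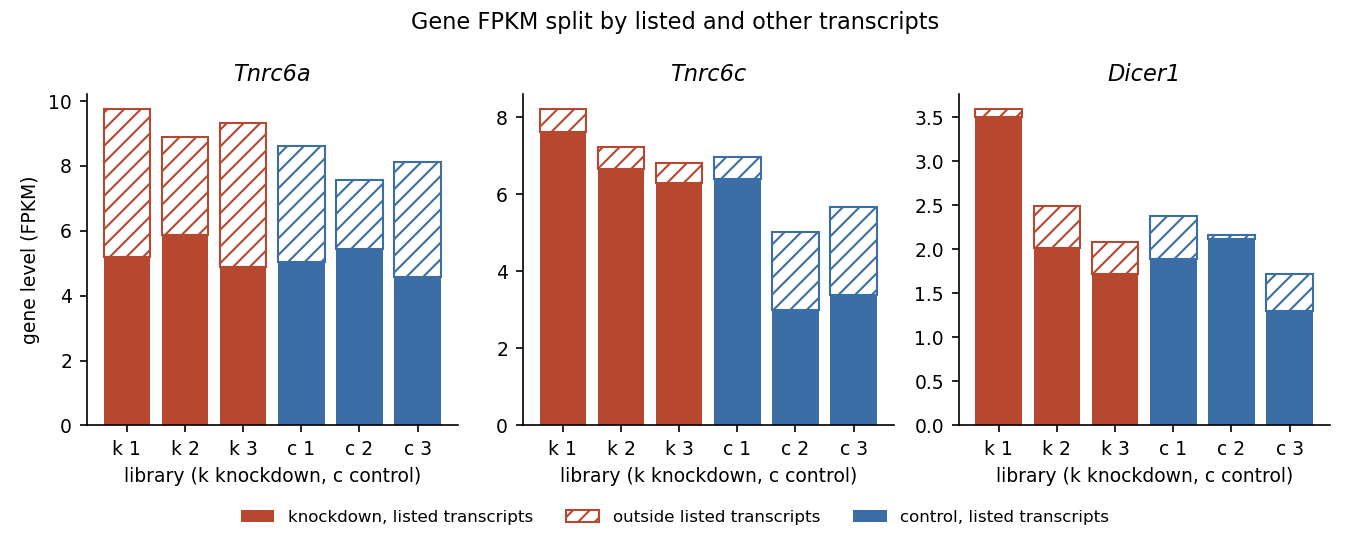
Gene FPKM of *Tnrc6a*, *Tnrc6c* and *Dicer1* by library, knockdown libraries left and control libraries right. Filled bars are the part within listed transcripts and hatched bars the part outside them, which is 40.6% and 40.3% of *Tnrc6c* in control 2 and 3.

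Partners of the pathway were taken from a list of 106 genes in 8 groups. Of these, 99 were listed and 98 passed the filter. None was called (limma, smallest adjusted p = 0.948), against 0% of all genes, and 1 had an unadjusted p under 0.05. Positive fold changes were seen in 57 of the 98 and negative ones in 41, with a median of 0.02, the same as over all genes. The PIWI genes *Piwil1*, *Piwil2* and *Piwil4*, the germline branch of the family, were not listed.

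Among Microprocessor cofactors 9 of 18 fold changes were positive (median -0.01), and *Adarb1*, an RNA editing enzyme, was at 8.49 ± 0.0823 FPKM in knockdown and 7.55 ± 0.322 FPKM in control libraries (SD, n = 3 each). The helicase gene *Ddx17* was at 75.1 ± 5.89 FPKM in knockdown and 67.5 ± 6.45 FPKM in control libraries. Export and import genes had a median of 0.02 over 6, with *Rangap1*, the activator of the Ran GTPase, at 62.0 ± 3.29 FPKM in knockdown and 56.8 ± 10.3 FPKM in control libraries. *Ranbp3* was at 31.5 ± 0.555 FPKM in knockdown and 33.5 ± 1.91 FPKM in control libraries. Dicer partners had a median of 0.03 over 7. *Zcchc6*, a terminal uridylyltransferase, was at 3.84 ± 0.710 FPKM in knockdown and 3.30 ± 0.471 FPKM in control libraries. *Lin28b*, which blocks let-7 maturation, was at 1.43 ± 0.185 FPKM in knockdown and 1.29 ± 0.213 FPKM in control libraries.

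Argonaute loading and turnover genes had a median of 0.00 over 17. *Wtip*, a LIM protein, was at 2.67 ± 0.721 FPKM in knockdown and 3.40 ± 0.876 FPKM in control libraries, and the co-chaperone *Dnajc7* at 40.9 ± 4.08 FPKM in knockdown and 44.4 ± 3.97 FPKM in control libraries. Argonaute-associated RNA-binding proteins and helicases had a median of 0.05 over 13. There *Rbm4* was at 2.58 ± 0.323 FPKM in knockdown and 3.22 ± 0.114 FPKM in control libraries, with every knockdown library below every control. The helicase gene *Ddx3x* was at 27.6 ± 3.23 FPKM in knockdown and 24.5 ± 2.85 FPKM in control libraries.

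Poly(A)-binding and deadenylation genes had the highest median, 0.07 over 20. *Paip2*, an inhibitor of poly(A)-binding protein, had the smallest p of the 98. It was at 32.1, 45.8 and 47.4 FPKM in knockdown 1, 2 and 3, against 30.2, 29.5 and 26.6 FPKM in control 1, 2 and 3 (log2 fold change 0.51, limma adjusted p = 0.948). The deadenylase gene *Cnot7* was at 14.8 ± 1.60 FPKM in knockdown and 12.2 ± 1.82 FPKM in control libraries. Translation repression, decapping and decay genes had a median of 0.06 over 17, with the decapping genes *Dcp1a* at 2.50 ± 0.222 FPKM in knockdown and 2.03 ± 0.357 FPKM in control libraries and *Dcp2* at 4.03 ± 0.834 FPKM in knockdown and 3.27 ± 0.208 FPKM in control libraries. Every knockdown library lay above every control in 2 of the 98 partners, *Adarb1* and *Paip2*, against 4.45% of tested genes. It lay below in 3, against 3.47% of tested genes: *Rbm4*, *Fxr2*, a relative of the fragile X protein (39.9 ± 0.472 FPKM in knockdown and 41.2 ± 0.718 FPKM in control libraries), and the scavenger decapping gene *Dcps* (8.69 ± 0.339 FPKM in knockdown and 9.71 ± 0.711 FPKM in control libraries).

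At transcript level 1 of 175 tested partner transcripts passed, against 0.103% of all tested transcripts. Hsp90aa1-201, of the chaperone that holds Argonaute open for loading, was at 3.88, 7.41 and 7.85 FPKM in knockdown 1, 2 and 3, against 332, 252 and 249 FPKM in control 1, 2 and 3 (log2 fold change -5.27, limma adjusted p = 0.0128). It kept a limma adjusted p under 0.05 with any 1 library left out and had 0.619 with the replicate block. The total of *Hsp90aa1* was at 240.0 ± 53.8 FPKM in knockdown and 263 ± 16.6 FPKM in control libraries.

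Single libraries and gene length went along with the positive fold changes. Knockdown 1 had the highest value of 6 of the 10 genes, and control 2 the lowest of 6. In these libraries the sums of oligodendrocyte markers were also highest and lowest, and those of inhibitory neuron markers lowest and highest. Control 2 also had the peak of the blood and striatal markers and of *Ttr*. The median deviation of the 10 from their means was 0.20, 0.07 and -0.03 (log2) in knockdown 1, 2 and 3, against 0.07, -0.19 and -0.13 in control 1, 2 and 3. Over all genes with more than 8000 exonic bases the libraries had the same order. Their median deviation was 0.11, 0.06 and -0.04 in knockdown 1, 2 and 3, against 0.06, -0.12 and -0.05 in control 1, 2 and 3. Over these 1904 genes the median log2 fold change was 0.09 with 75.3% positive, while over 1381 genes with up to 2000 exonic bases it was -0.08 with 28.6% positive.

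The genes described here are long. Exon length was known for 8 of them and ran from 5935 (*Drosha*) to 23677 bases (*Tnrc6b*). Of these, 6 exceeded 8000 bases, all with a positive fold change and a median of 0.22. The part of gene length, of library composition and of oligodendrocyte, inhibitory neuron, blood, striatal, choroid plexus or olfactory RNA in the fold changes was not tested.

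**Figure D5:**
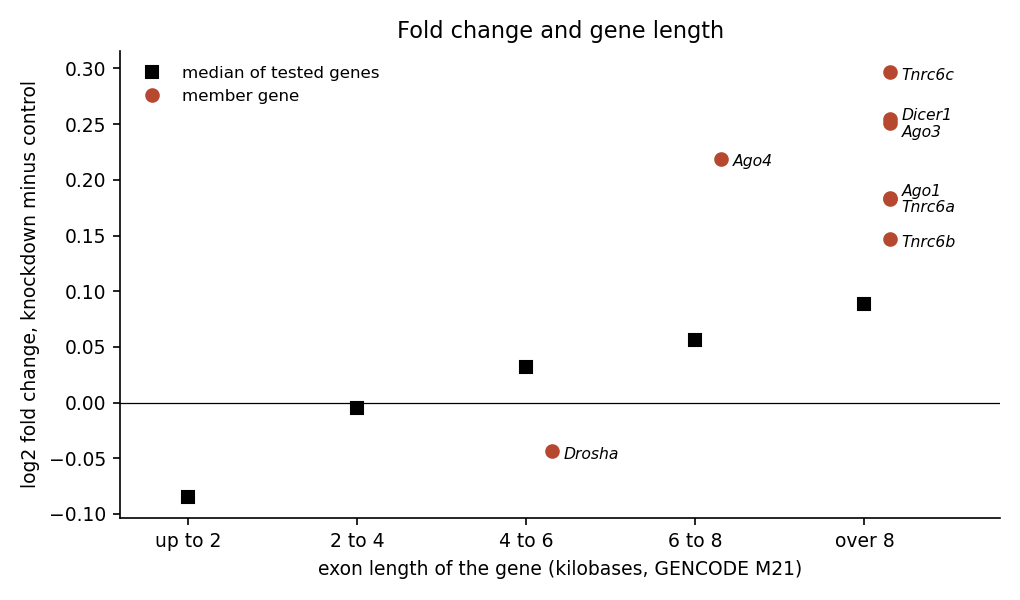
Log2 fold change of FPKM + 1, knockdown minus control, by exon length of the gene in 5 classes. Squares are medians over tested genes, which run from -0.08 in the shortest to 0.09 in the longest class, and circles are the genes of the machinery with a known length.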

How the data were processed

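FPKM values per gene and per transcript in 6 libraries (3 knockdown, 3 control) were used as the authors deposited them; FPKM is the unit per the file headers. Per the labels, total RNA was made into libraries with a stranded kit. The submitters' processing notes list FastQC, cutadapt, HISAT2 and StringTie with no version. Neither the build nor the annotation is given in the sources used here. GENCODE M21 (GRCm38) held 13316 of 13348 gene identifiers, 11678 of them at the deposited coordinates, including 8 of the 10 genes described. Coordinates of genes are those of the deposited tables. 1 line of each table was empty. All listed features are protein-coding, with a mean of at least 0.5 FPKM in 1 of the groups.

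The test was limma 3.58.1 (R 4.3.3) with an intensity trend, applied to log2(FPKM + 1) where the mean reached 1 FPKM (11961 genes, 18476 transcripts), and adjusted by Benjamini-Hochberg over all of them. A fold change is the knockdown mean less the control mean on that scale and understates the change of low features. No count test was possible, and the median half-width of a gene's 95% interval was 0.29. Usage was tested with diffSplice. In earlier results of these data this test called genes with no change simulated, so its p-values are taken as too small. Coding regions were aligned with mafft 7.526, proteins with Biopython 1.88. In control 1, the deposited gene value lay within 1% of transcript FPKM times transcript length, summed and divided by exon length. This held in 444 of 444 genes with every M21 model listed, and the other libraries were not checked. The functions were tested on simulated data.

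The genes, lists and tests were chosen with earlier results of these data known. The text names all 10 genes, their transcripts, and the 2 partners with the smallest p per group; Paip2 values are given per library because its p was the smallest. Hsp90aa1-201 was named after its values were seen. Exon length classes were also chosen after the data were seen. Alternatives covered the pseudocount, filter, scaling, variance model, weights, a replicate block, each library left out, and summed transcripts as gene value.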

Additional observations from a re-analysis of the deposited data

How the results depend on the processing

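No gene or transcript of the 10 passed under any alternative run: of 327 alternative values of 22 gene and transcript results, 0 passed and 2 changed sign, both after rescaling every library to a common sum, *Drosha* (0.0143) and Drosha-201 (0.0098). The 8 positive genes stayed positive throughout. Among partners, *Cnot7* changed sign (-1.05) with genes summed from listed transcripts. The cause was not tested. Of the 10 genes, groups did not overlap in 2 with median-of-ratios factors and in 2 after quantile normalization. With a library left out the count was 1 to 6. The share over all genes was not taken under these settings, so the counts have no baseline. The difference of Dicer1-203 was 2.76 with a pseudocount of 0.1, which weighs low values more. With a mean of at least 5 FPKM only 5 of the 10 genes and no usage test remained.

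With the replicate block, 0 of the 10 genes, 0 transcripts and 0 usage genes among them were called, and the smallest adjusted p of the 10 was 0.907. Same-numbered libraries had deviations with correlations of 0.18, -0.13 and -0.07, so the numbers were not taken as pairs. Over all transcripts, 19 were called, against 0 with the block, 44 with no intensity trend, 8 with at least 5 FPKM and 11 to 32 when a library was left out. Usage genes numbered 41, against 79 with no filter, 12 with at least 5 FPKM and 63 to 97 with a library left out. The p-values behind these usage counts are taken as too small. Genes called numbered 0, against 1 with a common sum, 3 with array weights, 4 as summed transcripts and up to 3 with a library left out. Depth is unknown, and whether it limits the calls was not tested.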
